A study of Mus musculus with 20 samples.

Results

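Integrins and laminins are families of protein chains through which cells hold on to the matrix around them. This account covers the 32 mouse genes whose symbols name an integrin alpha or beta chain with a number or the letter v, or a laminin alpha, beta or gamma chain, out of 36724 genes in the deposited expression table. They comprise 13 integrin alpha, 8 integrin beta, 5 laminin alpha, 3 laminin beta and 3 laminin gamma chain genes, chosen by symbol and not by their values. Integrin alpha chains with letter names, such as Itgam, were outside the symbol pattern and were kept as a separate list. Expression was measured by RNA sequencing of neurospheres, free-floating cell clusters grown from adult neural stem and progenitor cells of Egfl7 knockout or wild-type mice. Egfl7 encodes a secreted protein of the vessel wall and of neural stem cells that carries epidermal growth factor-like domains and is known to bind the integrin made of the Itgav and Itgb3 chains.

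The 20 libraries formed 6 groups. Spheres of the subventricular zone (SVZ), in sphere round 1 and at culture day 3, gave 3 knockout and 3 wild-type libraries, all from male donors. Hippocampal spheres of sphere round 2 (HC2), at culture day 5, gave 4 knockout and 4 wild-type libraries, all from male donors. Hippocampal spheres of sphere round 1 (HC1), at culture day 5, gave 3 knockout libraries from male donors and 3 wild-type libraries from female donors, so genotype and donor sex cannot be told apart in HC1. All donors were adults of 8 to 12 weeks on the C57BL6 background, and all spheres were untreated and grown in the same medium with EGF and FGF. How the Egfl7 allele was made, and which part of the gene it removes, is not given in these sources. Within a group each library carries a different mouse number in its title. The same number can appear in several groups with no word on whether it is the same animal. Same-numbered knockouts and wild types differ in genotype and so are different animals. Between groups of the same genotype, only same-numbered wild types of HC1 and HC2 differ in donor sex and so are known to be different animals. Libraries were treated as independent, and p-values describe the spread between them. Values are given in order of replicate number, which runs 1, 2 and 3 in SVZ and HC1 groups, 1, 4, 7 and 8 in HC2 knockouts and 2, 3, 5 and 6 in HC2 wild types.

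An integrin is a dimer of 1 alpha and 1 beta chain that spans the membrane, binds matrix proteins outside the cell and couples to the actin skeleton through talin and kindlin inside it. A laminin is a trimer of 1 alpha, 1 beta and 1 gamma chain that forms the sheet of a basement membrane. In the adult subventricular zone, neural stem cells touch laminin-rich structures around blood vessels, and the laminin receptor made of the Itga6 and Itgb1 chains is known as a means of that contact. The pair of Itgav and Itgb8 is known in the brain for releasing active TGF-beta from its latent complex.

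The files give linear RPKM, reads per kilobase of gene model scaled to library size, so levels are adjusted for gene length. The libraries also went through exon capture, and whether it caught all genes equally was not tested. Rankings, shares and ratios between genes are therefore approximate. A scale worked out from the lowest values put the libraries at 12.0 to 13.9 M reads in the SVZ, 17.8 to 31.2 M in HC2 and 11.7 to 12.9 M in HC1. Round and depth therefore cannot be told apart between HC2 and HC1. Egfl7 was listed at 0 in all hippocampal knockouts, against 0.566 to 1.59 RPKM in the hippocampal wild types. In the SVZ, the library labelled knockout replicate 2 had 2.86 RPKM of Egfl7 and the library labelled wild type replicate 3 was listed at 0, so both went against their labels. For the remaining SVZ libraries Egfl7 was at 0 and 0.094 RPKM in knockouts, against 1.73 and 2.99 RPKM in wild types. All 13 neural stem cell markers listed for the check, such as Nes and Sox2, passed the filter on low values. Few markers of cells outside the neural lineage passed that filter: 3 of 17 for endothelium, 6 of 15 for pericytes or fibroblasts, 3 of 15 for microglia or macrophages and 1 of 8 for platelets or blood. Cx3cr1 of microglia was at 0 in all 20 libraries, and Cdh5 of endothelium in all but 1, where it had 0.034 RPKM. The summed RPKM of the 17 endothelial markers was 4.78 to 9.07 in the SVZ, 1.37 to 3.05 in HC2 and 2.38 to 3.90 in HC1. Other sums were higher. The 15 microglia and macrophage markers summed to 17.1 to 22.0 RPKM in the SVZ, 31.3 to 57.4 in HC2 and 27.7 to 41.3 in HC1. For the 15 pericyte and fibroblast markers the sums were 30.4 to 101, 22.4 to 54.4 and 27.0 to 52.2 RPKM in the same order. In bulk spheres, a change in the share of a cell type and a change in RNA per cell cannot be told apart.

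The neurospheres carried a narrow set of these chains at high level. Itgb1, the beta chain shared by most matrix receptors, averaged 323 RPKM over the 20 libraries, followed by Itgb8 with 167, Itgav with 101, Itgb5 with 83.7 and Itga6 with 60.7 RPKM. The leading laminin chains were Lamc1 with 38.1, Lamb2 with 24.1, Lama5 with 13.0 and Lamb1 with 9.86 RPKM. Of the 32 genes, 23 had at least 0.5 RPKM in at least 3 libraries and were tested, and 9 were not. Chains too low to be tested included Itga11, Itgb2, Itgb4, Itgb6 and Itgb7.

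Levels moved between regions and sphere rounds, and no chain passed the test between genotypes. Changes were tested on log2(RPKM + 1) with limma, and adjusted p-values are from Benjamini-Hochberg adjustment over 16403 kept genes with a threshold of 0.05. In SVZ against HC1 spheres, 7 of the 23 tested chains were higher and 1 was lower, which is 34.8% of the chains beside 34.1% of all kept genes. In HC2 against HC1 spheres, 7 were higher and 2 lower, which is 39.1% of the chains beside 54.3% of all kept genes. Of the lower chains in HC2, Itga10 passed the filter on low values through HC1. Both comparisons use the same 6 HC1 libraries, so their values are not independent of each other. The HC1 wild types were the only libraries from female donors, so donor sex also differs in part in both comparisons. By direction, 14.5% of all kept genes were higher and 19.6% lower in the SVZ, and 22.8% were higher and 31.5% lower in HC2. The median log2 difference of the 23 chains was 0.24 in the SVZ and 0.26 in HC2, against -0.03 and -0.06 over all kept genes.

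**Figure D1:**
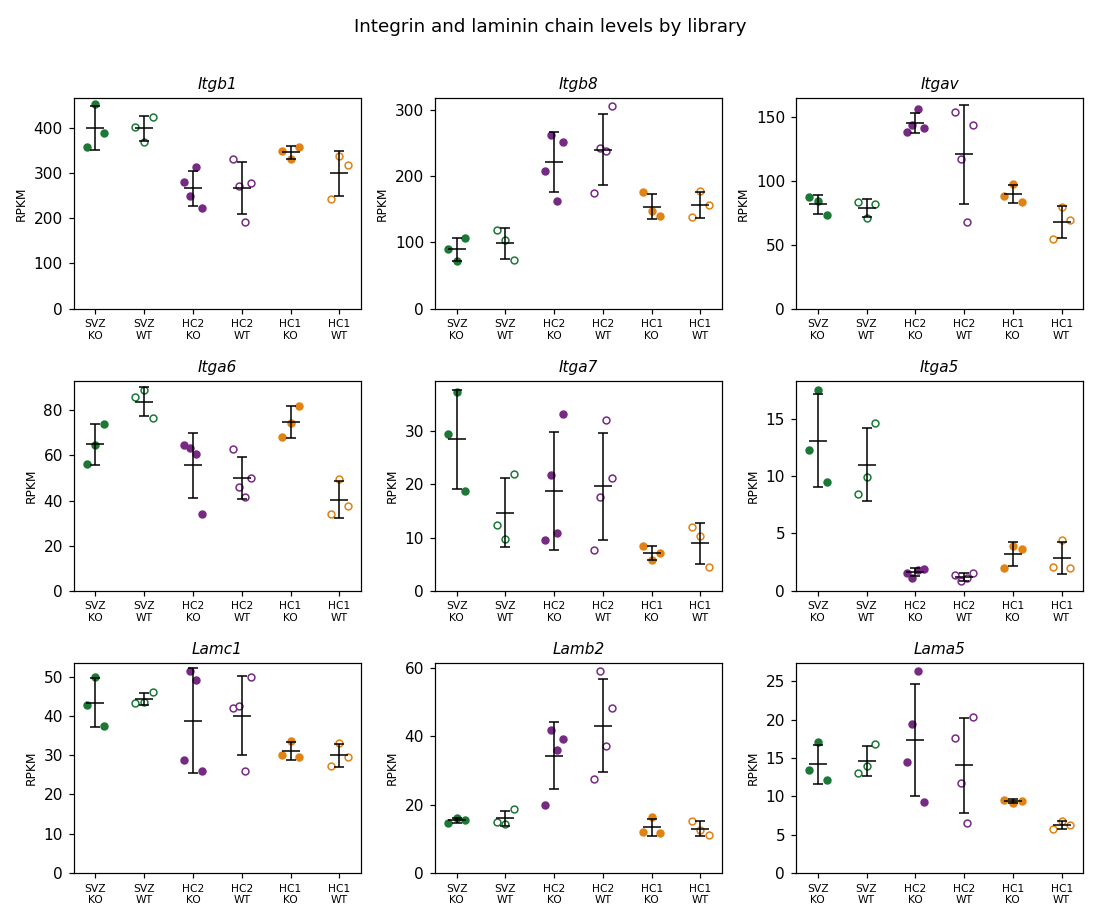
RPKM of 9 leading chains in every library, by region, sphere round and genotype (filled points knockout, open points wild type, bars mean and SD, linear axes from 0). Itga5 lies at 8.45 to 17.5 RPKM in the SVZ and at or below 4.43 RPKM in every hippocampal library, while Itgb8 lies at 72.0 to 119 RPKM in the SVZ and at or above 138 RPKM in the hippocampus.

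Among the beta chains, Itgb8 was lower in the SVZ and higher in HC2, both against HC1. Itgb8, the partner of Itgav in TGF-beta release (chromosome 12, bases 119158186 to 119238276, minus strand, GRCm38), had 90.1, 72.0 and 106 RPKM in the SVZ knockouts, against 119, 103 and 72.9 RPKM in the SVZ wild types. It had 207, 262, 163 and 251 RPKM in the HC2 knockouts, against 174, 242, 238 and 306 RPKM in the HC2 wild types. It was at 176, 147 and 139 RPKM in the HC1 knockouts, against 138, 177 and 157 RPKM in the HC1 wild types. Every SVZ library lay below every HC1 library, as in 12.2% of kept genes, and the difference was -0.74 log2 units (SE 0.16, adjusted p = 0.00272) between SVZ and HC1 and 0.54 log2 units (SE 0.15, adjusted p = 0.00494) between HC2 and HC1. The lowest values of each SVZ genotype, 72.0 and 72.9 RPKM, were those of the libraries that went against their Egfl7 labels. Without both libraries the SVZ difference was -0.57 (adjusted p = 0.0264). The HC2 difference missed the threshold among knockouts alone, at 0.50 (adjusted p = 0.0683), and with the cell cycle level in the model, at 0.35 (adjusted p = 0.0855).

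Itgb1 (chromosome 8, bases 128685284 to 128733579, plus strand) had 357, 452 and 388 RPKM in the SVZ knockouts, against 402, 369 and 424 RPKM in the SVZ wild types. It had 281, 249.7, 313 and 223 RPKM in the HC2 knockouts, against 330.4, 271, 192 and 277 RPKM in the HC2 wild types. It was at 348, 330.3 and 358 RPKM in the HC1 knockouts, against 242, 338 and 317 RPKM in the HC1 wild types. Neither difference passed the threshold, with 0.31 log2 units (SE 0.12, adjusted p = 0.0603) for SVZ minus HC1 and -0.28 log2 units (SE 0.12, adjusted p = 0.0524) for HC2 minus HC1. All SVZ libraries nevertheless lay above all HC2 libraries, as did those of 21.6% of the kept genes.

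Itgb5, which pairs with Itgav to bind vitronectin (chromosome 16), had 75.2, 47.4 and 91.0 RPKM in the SVZ knockouts, against 80.3, 81.6 and 78.9 RPKM in the SVZ wild types. Its values were 76.2, 80.4, 80.2 and 95.9 RPKM in the HC2 knockouts, against 58.8, 116, 89.1 and 128 RPKM in the HC2 wild types. Its values were 102, 97.3 and 80.6 RPKM in the HC1 knockouts, against 76.9, 76.4 and 61.7 RPKM in the HC1 wild types. The groups of the regions overlapped, and the differences were -0.13 log2 units (SE 0.17, adjusted p = 0.588) for SVZ minus HC1 and 0.12 log2 units (SE 0.16, adjusted p = 0.562) for HC2 minus HC1. The lowest Itgb5 value of all libraries, 47.4 RPKM, was that of the SVZ knockout replicate 2.

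The other beta chains were scarce. Itgb3, the beta chain of platelets and of activated endothelium, which EGFL7 is known to bind together with Itgav, had 0.576, 0.537 and 0.163 RPKM in the SVZ knockouts, against 0.316, 0.311 and 0.409 RPKM in the SVZ wild types. It had 0.375, 0.330, 0.301 and 0.603 RPKM in the HC2 knockouts, against 0.296, 0.873, 0.345 and 0.665 RPKM in the HC2 wild types. It was at 0.200, 0.325 and 0.417 RPKM in the HC1 knockouts, against 0.471, 0.818 and 0.220 RPKM in the HC1 wild types. No library reached 1 RPKM of Itgb3, and neither region nor round passed the test. Itgb7, a lymphocyte chain below the filter, had 0.033, 0.033 and 0.162 RPKM in the SVZ knockouts, against 0.071, 0.067 and 0.089 RPKM in the SVZ wild types. It had 0.041, 0.245, 0.023 and 0.105 RPKM in the HC2 knockouts, against 0.030, 0.289, 0.410 and 0.064 RPKM in the HC2 wild types. It was at 0.071, 0.177 and 0.034 RPKM in the HC1 knockouts, against 0.355, 0.135 and 0.256 RPKM in the HC1 wild types. These Itgb7 values stayed under 0.5 RPKM in every library. Itgb2, the leukocyte chain, lay at 0 to 0.553 RPKM, and Itgb4, the partner of Itga6 in epithelial anchoring junctions, at 0 to 0.117 RPKM. Itgb6, an epithelial chain, was listed at 0 in all 20 libraries.

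The laminin-binding alpha chains were led by Itga6 (chromosome 2, bases 71786885 to 71858427, plus strand). It had 56.1, 64.5 and 74.1 RPKM in the SVZ knockouts, against 85.9, 88.9 and 76.5 RPKM in the SVZ wild types. Its values were 64.4, 63.5, 60.6 and 34.1 RPKM in the HC2 knockouts, against 62.7, 45.9, 41.4 and 49.8 RPKM in the HC2 wild types. Its values were 68.0, 74.6 and 81.9 RPKM in the HC1 knockouts, against 33.9, 49.7 and 37.5 RPKM in the HC1 wild types. Every SVZ knockout lay below every SVZ wild type, and every HC1 knockout above every HC1 wild type, while the HC2 genotypes overlapped. Across genotypes the SVZ was higher than HC1 by 0.42 log2 units (SE 0.15, adjusted p = 0.0383), and HC2 minus HC1 was -0.08 log2 units (SE 0.14, adjusted p = 0.654). Among knockouts alone, SVZ minus HC1 turned to -0.21 (adjusted p = 0.569). It also missed the threshold without the pair of SVZ libraries that went against their Egfl7 labels, with 0.45 (adjusted p = 0.0847), and in 9 of the 12 fits that left out 1 library, all but SVZ knockout 1, HC1 knockout 3 and HC1 wild type 2, with adjusted p up to 0.0914.

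Itga7, another laminin-binding chain, best known from muscle (chromosome 10, bases 128933775 to 128958286, plus strand), spread widely within groups. It had 29.5, 37.3 and 18.8 RPKM in the SVZ knockouts, against 12.3, 9.66 and 22.0 RPKM in the SVZ wild types. It had 9.46, 21.7, 10.9 and 33.2 RPKM in the HC2 knockouts, against 7.69, 17.6, 32.1 and 21.1 RPKM in the HC2 wild types. It was at 8.48, 5.80 and 7.05 RPKM in the HC1 knockouts, against 11.9, 10.3 and 4.54 RPKM in the HC1 wild types. Itga7 was higher in the SVZ by 1.25 log2 units (SE 0.35, adjusted p = 0.0130) and in HC2 by 1.06 log2 units (SE 0.33, adjusted p = 0.0115), both relative to HC1 and both with overlapping groups. Without both SVZ libraries of doubtful label the SVZ difference was 0.98 (adjusted p = 0.0886). With the cell cycle level of each library in the model the HC2 difference was 0.34 (adjusted p = 0.314). Itga3, a laminin receptor of epithelia, stayed at 0.098 to 1.11 RPKM and passed neither test.

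Among the chains that read the RGD motif, the short peptide in fibronectin and vitronectin, Itgav was the most abundant (chromosome 2, bases 83723819 to 83806917, plus strand). It had 87.8, 84.6 and 73.4 RPKM in the SVZ knockouts, against 83.4, 71.1 and 82.2 RPKM in the SVZ wild types. It had 138, 144, 156 and 142 RPKM in the HC2 knockouts, against 154, 117, 67.8 and 144 RPKM in the HC2 wild types. It was at 88.3, 98.0 and 83.7 RPKM in the HC1 knockouts, against 54.3, 79.4 and 69.6 RPKM in the HC1 wild types. Itgav was higher in HC2 than in HC1, by 0.73 log2 units (SE 0.14, adjusted p = 0.000381), with 1 HC2 wild type, replicate 5, inside the HC1 range. Its SVZ minus HC1 difference was 0.05 log2 units (95% interval -0.28 to 0.37).

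Itga5, the fibronectin receptor chain that pairs with Itgb1 (chromosome 15, bases 103344286 to 103366748, minus strand), was highest in the SVZ and lowest in HC2. It had 12.2, 17.5 and 9.50 RPKM in the SVZ knockouts, against 8.45, 9.95 and 14.6 RPKM in the SVZ wild types. It had 1.58, 1.15, 1.83 and 1.90 RPKM in the HC2 knockouts, against 1.36, 0.811, 1.13 and 1.55 RPKM in the HC2 wild types. It was at 1.97, 3.93 and 3.65 RPKM in the HC1 knockouts, against 2.08, 4.43 and 1.98 RPKM in the HC1 wild types. All SVZ libraries lay above all HC1 libraries, as in 11.4% of kept genes, and all HC2 libraries lay below all HC1 libraries, as in 16.5% of kept genes. The differences were 1.71 log2 units (SE 0.19, adjusted p = 3.72e-05) for SVZ minus HC1 and -0.70 log2 units (SE 0.18, adjusted p = 0.00351) for HC2 minus HC1. The SVZ difference was 1.50 (adjusted p = 0.000579) without both libraries of doubtful label and 1.75 (adjusted p = 0.0025) among knockouts alone. The HC2 difference among knockouts alone was -0.65 (adjusted p = 0.0530), which did not pass.

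The 250 bases before the RefSeq start of Itga5 are shown because the gene differed in both comparisons. Capitals mark GGGCGG or its other-strand form CCGCCC, the core of the GC box, and the sequence is the gene's own strand from RefSeq on GRCm38.p6 (chr15:103366792-103367041, minus strand).
Itga5: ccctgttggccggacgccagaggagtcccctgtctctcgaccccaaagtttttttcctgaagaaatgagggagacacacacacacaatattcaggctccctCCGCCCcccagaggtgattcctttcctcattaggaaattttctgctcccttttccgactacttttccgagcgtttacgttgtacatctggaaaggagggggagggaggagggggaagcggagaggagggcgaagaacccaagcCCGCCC
This window held 2 such matches and 55.6% G and C. Neither CCAAT nor TATAAA was present in it on either strand, so no motif overlapped another. GGGCGG occurred on either strand in 32.7% of 32851 upstream windows of the same length, CCAAT in 33.8% and TATAAA in 12.4%. Of the 21 chain genes with an entry, 7 had GGGCGG, 3 had CCAAT and 0 had TATAAA.

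Itga4, a chain that binds fibronectin and the vascular adhesion protein VCAM (chromosome 2, bases 79255426 to 79333114, plus strand), was higher in the SVZ and spread widely there. It had 13.0, 34.0 and 5.68 RPKM in the SVZ knockouts, against 3.96, 5.21 and 13.9 RPKM in the SVZ wild types. It had 2.75, 2.52, 3.72 and 1.73 RPKM in the HC2 knockouts, against 2.83, 0.226, 0.586 and 1.61 RPKM in the HC2 wild types. It was at 3.13, 1.63 and 2.93 RPKM in the HC1 knockouts, against 1.31, 2.58 and 2.17 RPKM in the HC1 wild types. All SVZ libraries were above all HC1 libraries, and the highest of each SVZ genotype were those of doubtful label. The SVZ minus HC1 difference was 1.73 log2 units (SE 0.37, adjusted p = 0.00284), and 1.19 (adjusted p = 0.0182) without that pair of libraries. HC2 minus HC1 was -0.23 log2 units (95% interval -0.96 to 0.51) and did not pass.

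Of the remaining alpha chains that are not laminin or collagen receptors, only Itga2b was called. Itga2b, the platelet receptor chain for fibrinogen, had 0.670, 0.879 and 0.862 RPKM in the SVZ knockouts, against 1.13, 0.632 and 0.581 RPKM in the SVZ wild types. Its levels were 0.795, 1.21, 1.05 and 1.33 RPKM in the HC2 knockouts, against 0.688, 0.889, 1.05 and 0.562 RPKM in the HC2 wild types. Its values were 0.507, 0.663 and 0.448 RPKM in the HC1 knockouts, against 0.882, 0.663 and 0.399 RPKM in the HC1 wild types. It was higher in HC2 by 0.28 log2 units (SE 0.10, adjusted p = 0.0243), a small difference that missed the threshold without HC1 knockout 3 or HC1 wild type 3, with adjusted p up to 0.0780, and with the cell cycle level in the model, at 0.14 (adjusted p = 0.311). The 8 platelet and blood markers summed to 0.279 to 0.816 RPKM in the SVZ, 0.638 to 1.20 in HC2 and 0.418 to 0.796 in HC1. Itga8, a receptor chain for nephronectin, lay at 1.56 to 4.98 RPKM in the SVZ, 0.243 to 1.85 in HC2 and 0.477 to 2.28 in HC1. Itga9, a tenascin receptor chain, lay at 0.456 to 3.42 RPKM over all libraries. Neither passed in either comparison, and Itga8 had 0.54 log2 units (95% interval 0.01 to 1.06) for SVZ minus HC1.

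The collagen-binding alpha chains were low throughout. Itga1 (chromosome 13, bases 114958079 to 115101964, minus strand) had 1.28, 0.726 and 1.13 RPKM in the SVZ knockouts, against 1.20, 1.13 and 1.14 RPKM in the SVZ wild types. It had 2.18, 1.66, 1.92 and 3.21 RPKM in the HC2 knockouts, against 2.83, 1.51, 3.01 and 1.48 RPKM in the HC2 wild types. It was at 0.960, 1.11 and 1.04 RPKM in the HC1 knockouts, against 1.15, 0.916 and 0.459 RPKM in the HC1 wild types. Every HC2 library was above every HC1 library, as in 8.87% of kept genes, and the difference was 0.72 log2 units (SE 0.14, adjusted p = 0.000358). Itga10, a chain known from cartilage, had 0.462, 0.423 and 0.517 RPKM in the SVZ knockouts, against 0.286, 0.291 and 0.432 RPKM in the SVZ wild types. It had 0.366, 0.295, 0.209 and 0.098 RPKM in the HC2 knockouts, against 0.240, 0.133, 0.518 and 0.299 RPKM in the HC2 wild types. It was at 0.521, 0.783 and 0.444 RPKM in the HC1 knockouts, against 0.514, 0.542 and 0.596 RPKM in the HC1 wild types. Itga10 was called lower in HC2, at -0.31 log2 units with overlapping ranges. It reached 0.5 RPKM in 5 HC1 libraries, 1 SVZ and 1 HC2 library, so it passed the filter through the group where it was high, and the difference is a description. Itga2, a collagen receptor of platelets and epithelia, ranged over 0.430 to 4.87 RPKM in HC2, against 0.874 to 2.90 RPKM in HC1, and did not pass. Itga11 stayed at 0 to 0.05 RPKM and was listed at 0 in 6 libraries.

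Among laminin alpha chains, Lama5, the long form common in adult basement membranes (chromosome 2, bases 180176373 to 180225905, minus strand), led. It had 13.4, 17.1 and 12.1 RPKM in the SVZ knockouts, against 13.1, 13.996 and 16.8 RPKM in the SVZ wild types. It had 14.5, 19.4, 26.4 and 9.23 RPKM in the HC2 knockouts, against 17.6, 11.7, 6.53 and 20.3 RPKM in the HC2 wild types. It was at 9.57, 9.10 and 9.45 RPKM in the HC1 knockouts, against 5.75, 6.82 and 6.21 RPKM in the HC1 wild types. All 6 SVZ libraries exceeded all 6 HC1 libraries, and Lama5 was higher by 0.82 log2 units (SE 0.23, adjusted p = 0.0141) in the SVZ and by 0.84 log2 units (SE 0.22, adjusted p = 0.00382) in HC2. Among knockouts alone the differences were 0.54 (adjusted p = 0.320) for the SVZ and 0.74 (adjusted p = 0.0712) for HC2, neither past the threshold. Without both SVZ libraries of doubtful label the SVZ difference was 0.70 (adjusted p = 0.0824).

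The bases before the RefSeq start of Lama5 are shown as the laminin alpha chain that was higher in both comparisons, with capitals, source and build as above (chr2:180225860-180226109, minus strand). The deposited table starts the gene farther upstream, so the end of the window lies inside its span.
Lama5: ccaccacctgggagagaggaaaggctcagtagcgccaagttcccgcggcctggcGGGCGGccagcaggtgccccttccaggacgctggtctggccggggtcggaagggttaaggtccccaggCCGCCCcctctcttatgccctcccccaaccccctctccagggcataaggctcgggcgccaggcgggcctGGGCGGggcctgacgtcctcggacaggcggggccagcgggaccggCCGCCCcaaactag
This window held 4 matches to GGGCGG or CCGCCC and 72.4% G and C, and neither CCAAT nor TATAAA.

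Lama4, a chain of vessel and nerve basement membranes (chromosome 10, bases 38965515 to 39110188, plus strand), had 7.17, 9.66 and 5.80 RPKM in the SVZ knockouts, against 7.06, 4.91 and 7.73 RPKM in the SVZ wild types. Its values were 4.49, 2.34, 7.29 and 0.983 RPKM in the HC2 knockouts, against 6.39, 5.20, 0.553 and 4.08 RPKM in the HC2 wild types. Its values were 7.34, 7.50 and 6.20 RPKM in the HC1 knockouts, against 1.84, 6.07 and 5.28 RPKM in the HC1 wild types. The regions overlapped, and Lama4 passed neither test, with 0.32 log2 units (95% interval -0.48 to 1.12) for SVZ minus HC1. Lama1, a chain of embryonic and pial basement membranes, lay at 4.17 to 5.16 RPKM in the SVZ, 1.11 to 5.52 in HC2 and 1.74 to 3.98 in HC1. All SVZ libraries were above all HC1 libraries, yet the limma difference of 0.52 log2 units (SE 0.22, adjusted p = 0.0765) missed the threshold. Lama2, the chain of muscle and peripheral nerve, lay at 0.213 to 5.72 RPKM in HC2 and did not exceed 1.11 RPKM elsewhere. Lama3, an epithelial chain, stayed at 0.023 to 0.135 RPKM.

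Lamb2 showed the largest log2 difference of the chains between rounds. Lamb2, a beta chain of synaptic, vascular and pial laminins (chromosome 9, bases 108479857 to 108490530, plus strand), had 14.7, 16.0 and 15.4 RPKM in the SVZ knockouts, against 14.9, 14.4 and 18.6 RPKM in the SVZ wild types. It had 19.9, 41.8, 36.1 and 39.2 RPKM in the HC2 knockouts, against 27.6, 59.0, 37.2 and 48.3 RPKM in the HC2 wild types. It was at 12.0, 16.3 and 11.7 RPKM in the HC1 knockouts, against 15.2, 12.7 and 10.97 RPKM in the HC1 wild types. Every HC2 library lay above every HC1 library, as in 8.87% of kept genes, and above every SVZ library, as in 16.4%. The HC2 minus HC1 difference was 1.44 log2 units (SE 0.17, adjusted p = 2.06e-06). Among knockouts alone it was 1.26 (adjusted p = 0.000562). SVZ minus HC1 was 0.24 log2 units (95% interval -0.15 to 0.63) and did not pass.

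The bases before the RefSeq start of Lamb2 are shown as the chain with that difference between rounds (chr9:108479612-108479861, plus strand), and here too the last bases lie inside the span given by the deposited table.
Lamb2: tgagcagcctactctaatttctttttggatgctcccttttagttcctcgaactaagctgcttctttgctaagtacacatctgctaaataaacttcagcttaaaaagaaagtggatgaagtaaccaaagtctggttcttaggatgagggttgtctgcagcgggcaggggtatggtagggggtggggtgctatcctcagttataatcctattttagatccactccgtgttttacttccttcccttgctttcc
No capitals appear because the window held 0 matches to GGGCGG or CCGCCC, with 43.6% G and C, and it held neither CCAAT nor TATAAA.

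Lamb1, the beta chain of embryonic and many adult laminins (chromosome 12, bases 31265148 to 31329644, plus strand), was higher in the SVZ. It had 12.5, 17.7 and 11.7 RPKM in the SVZ knockouts, against 9.76, 11.9 and 18.8 RPKM in the SVZ wild types. It had 8.29, 11.1, 13.99 and 6.38 RPKM in the HC2 knockouts, against 10.99, 10.2, 4.12 and 11.7 RPKM in the HC2 wild types. It was at 7.06, 6.51 and 9.53 RPKM in the HC1 knockouts, against 4.33, 8.38 and 2.25 RPKM in the HC1 wild types. All SVZ libraries were above all HC1 libraries, and Lamb1 was higher by 1.07 log2 units (SE 0.27, adjusted p = 0.00770), or by 0.86 (adjusted p = 0.0610) without both SVZ libraries of doubtful label. Among knockouts alone it was 0.78 (adjusted p = 0.215). Lamb3, an epithelial chain, stayed at 0.010 to 0.365 RPKM.

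Lamc1, the gamma chain of most laminins (chromosome 1, bases 153218922 to 153332786, minus strand), made up 99.5% or more of the summed gamma chain RPKM in every library. It had 42.8, 49.9 and 37.5 RPKM in the SVZ knockouts, against 43.1, 43.5 and 46.0 RPKM in the SVZ wild types. Its values were 28.8, 51.4, 49.1 and 25.8 RPKM in the HC2 knockouts, against 41.9, 42.4, 26.1 and 49.9 RPKM in the HC2 wild types. Its values were 30.1, 33.6 and 29.4 RPKM in the HC1 knockouts, against 27.2, 33.1 and 29.5 RPKM in the HC1 wild types. Every SVZ library was above every HC1 library, and Lamc1 was higher by 0.51 log2 units (SE 0.17, adjusted p = 0.0287). It missed the threshold without SVZ knockout 2, SVZ wild type 3, HC1 knockout 1 or 3, or HC1 wild type 1, with adjusted p up to 0.0703, and among knockouts alone, at 0.46 (adjusted p = 0.230). Lamc3 stayed at or below 0.071 RPKM and was listed at 0 in 7 libraries.

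**Figure D2:**
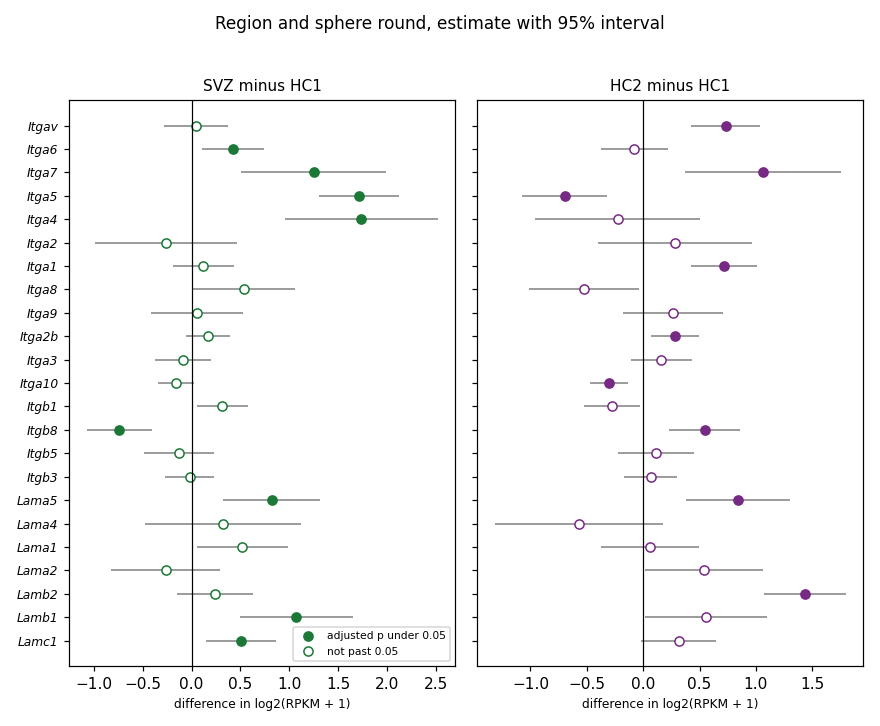
Log2 difference in RPKM + 1 with its 95% interval for the 23 tested chains, SVZ minus HC1 on the left and HC2 minus HC1 on the right (filled points adjusted p under 0.05, from limma). Itga4 and Itga5 lie farthest right in the SVZ panel at 1.73 and 1.71, and Lamb2 in the HC2 panel at 1.44.

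Read together by class, the makeup of the chain pool differed between regions, as a description of the RPKM sums with no test. Itgb8 made up a median of 17.7% of the summed beta chains in the SVZ, 40.7% in HC2 and 28.6% in HC1. Itgb1 made up 67.5%, 42.6% and 57.2% in the same groups of libraries. For both beta chains HC1 lay between the SVZ and HC2. Among alpha chains, Itgav made up a median of 38.4% in the SVZ, 62.1% in HC2 and 50.7% in HC1, and Itga6 made up 37.3%, 25.8% and 35.5%. Itga5 made up a median of 5.56% in the SVZ, 0.697% in HC2 and 1.92% in HC1, and Itga4 made up 4.65%, 0.907% and 1.63%. Itga7 made up 10.05%, 9.13% and 4.30%, but within wild types its median was 6.14% in the SVZ and 6.72% in HC1. Lama5 was the first laminin alpha chain everywhere by median, with 52.5% in the SVZ, 66.7% in HC2 and 43.7% in HC1. Lama4 was the next, with 27.1%, 16.0% and 34.7%. Lamb2 made up a median of 54.1% of the beta chains in the SVZ, 79.7% in HC2 and 67.1% in HC1. The summed beta chains were 2.78 times the summed alpha chains by median in the SVZ, 2.52 times in HC2 and 3.71 times in HC1.

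**Figure D3:**
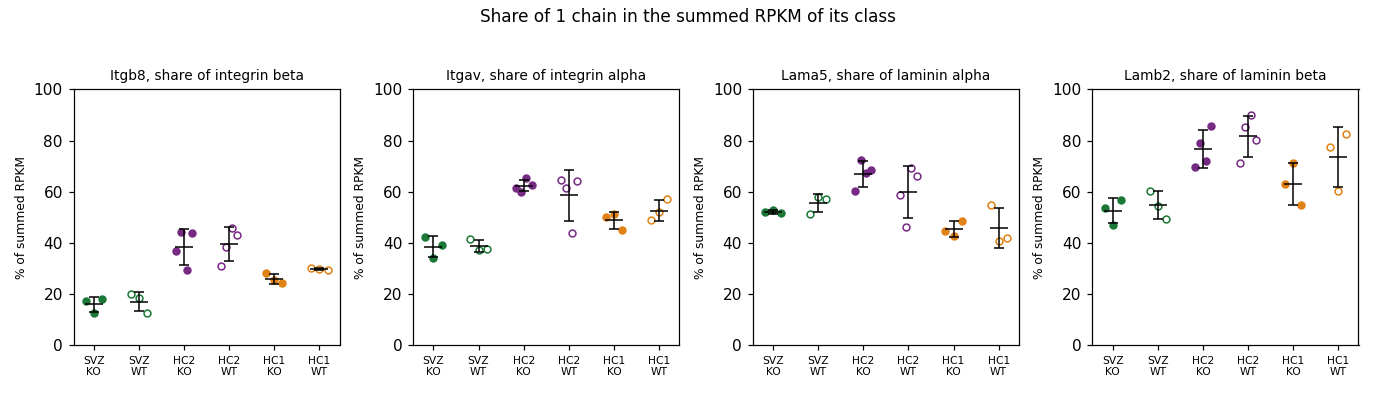
Share of 1 chain in the summed RPKM of its class in every library, in percent from 0 to 100 (filled points knockout, open points wild type, bars mean and SD). Itgb8 holds at most 19.8% of the beta chains in the SVZ, at least 29.2% in HC2 and 24.1% to 30.1% in HC1.

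The genotype comparison asked whether loss of Egfl7 moved these chains. In limma none of the 23 tested chains passed in any knockout minus wild-type comparison, which left 0 of 23 beside 0.0122% of kept genes in the SVZ, 0.0244% in HC2, 0.0122% in HC1 and 0.0305% for the mean of the hippocampal rounds. At an unadjusted p under 0.05 the counts were 0 in the SVZ, 0 in HC2, 1 in HC1 (Itga6) and 2 over both hippocampal rounds (Itga6 and Itgav). Over all kept genes that unadjusted level held 2.31%, 3.93%, 3.94% and 5.91% of genes in these 4 comparisons. The difference of the knockout effect between HC2 and HC1, and between the SVZ and the hippocampus, also gave 0 of 23 chains, beside 0.0244% and 0.0183% of kept genes, with Itga6 alone at an unadjusted p under 0.05 in each. By direction, 0.0061% of kept genes were called higher and 0.0244% lower over both hippocampal rounds, and 0.0122% higher and 0.0061% lower for the SVZ against the hippocampal effect.

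Itga6 had the smallest p of the 23 chains in HC1 and over both hippocampal rounds. It averaged 74.8 ± 6.97 RPKM in HC1 knockouts and 40.4 ± 8.31 RPKM in HC1 wild types (SD, n = 3 each), a difference of 0.89 log2 units (SE 0.21, adjusted p = 0.579) in limma. In the SVZ it averaged 64.9 ± 8.97 RPKM in knockouts and 83.8 ± 6.44 RPKM in wild types (SD, n = 3 each), a difference of -0.37 log2 units (SE 0.21, adjusted p = 1.00). In HC2 it averaged 55.7 ± 14.4 RPKM in knockouts and 49.9 ± 9.17 RPKM in wild types (SD, n = 4 each), a difference of 0.13 log2 units (SE 0.18, adjusted p = 0.993). By label, the direction in the SVZ was thus opposite to that in HC1, where genotype and donor sex cannot be told apart. The limma test of the SVZ against the hippocampal effect gave -0.88 log2 units (SE 0.25, unadjusted p = 0.00301, adjusted p = 0.999852). Two-sided exact permutation tests on the log2 values gave p = 0.1 in HC1 and in the SVZ, which is the smallest p that 3 against 3 libraries allow, and p = 0.6 in HC2. Over both hippocampal rounds, with genotypes permuted within round, the difference was 0.51 (exact permutation p = 0.0329, 1400 arrangements), while the limma adjusted p was 0.750. Itga6 was set apart for that permutation test because it stood out in an earlier pass through these data, so its p is a description and carries no independent weight. That exact permutation p was 0.05 to 0.0629 in 9 of 14 repeats that left out 1 library, namely any HC1 knockout, HC1 wild type 1, HC2 knockout 1, 4 or 7, or HC2 wild type 3 or 5. Without the 2 SVZ libraries of doubtful label the SVZ difference was -0.43, and the cell cycle level in the model left 0.80 in HC1 and -0.09 in HC2.

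Several chains had no overlap between genotypes in HC1. Every knockout was above every wild type for Itga6, Itgav, Itgb5, Lama1, Lama4 and Lama5, 6 of 23 chains beside 6.63% of kept genes, and every knockout was below every wild type for Itga3, 1 chain beside 7.05%. In the SVZ, Itga6 was the 1 chain with every knockout below every wild type (4.35% of kept genes), and 0 were above (3.41%). In HC2, 0 chains were above (0.719%) and 0 below (0.408%). The limma differences in HC1 were 0.42 log2 units (SE 0.22, adjusted p = 0.976) for Itgav, 0.52 log2 units (SE 0.33, adjusted p = 0.976) for Lama5 and 0.67 log2 units (SE 0.53, adjusted p = 0.976) for Lama4. For Itgav the HC2 difference was 0.33 log2 units (95% interval -0.07 to 0.73) and the SVZ difference 0.05 log2 units (95% interval -0.41 to 0.51). In HC1 the mean log2 level of 38 cell cycle genes was 5.58 to 6.04 in knockouts and 4.65 to 5.72 in wild types, and the summed RPKM of 13 astrocyte markers was 3254 to 3826 in knockouts and 3447 to 7030 in wild types. Both measures overlapped between genotypes. Wild type replicate 1 was the extreme library in both and was also the lowest HC1 library for Itga6, Itgav, Lama1, Lama4 and Lama5.

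**Figure D4:**
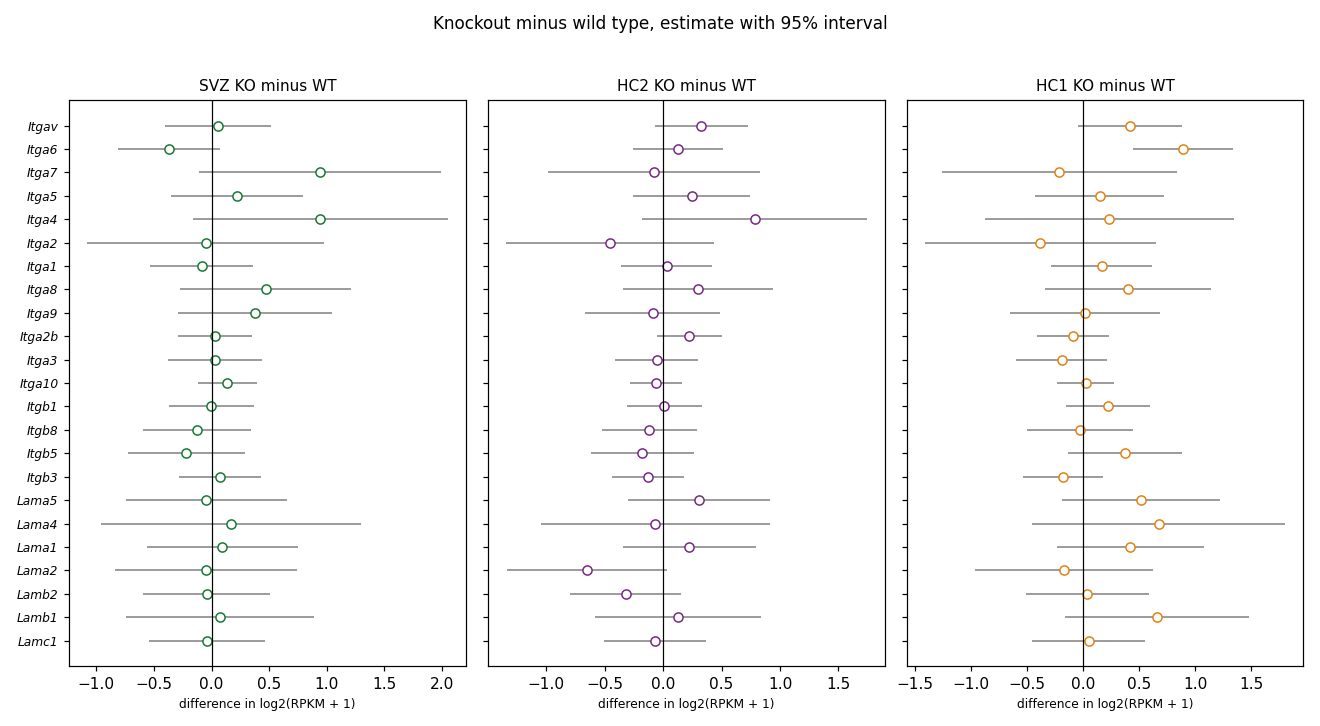
Knockout minus wild-type log2 difference in RPKM + 1 with its 95% interval for the 23 tested chains, in the SVZ, HC2 and HC1 panels. Every interval crosses 0 except that of Itga6 in HC1, from 0.44 to 1.33, and no chain passes the adjusted threshold.

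For most chains the intervals leave room for sizeable differences. Itgb1, the most abundant, had knockout minus wild-type differences of -0.0023 log2 units (95% interval -0.37 to 0.37) in the SVZ, 0.01 log2 units (95% interval -0.31 to 0.33) in HC2 and 0.22 log2 units (95% interval -0.15 to 0.59) in HC1. Itgb3 had 0.07 log2 units (95% interval -0.28 to 0.43), -0.13 log2 units (95% interval -0.44 to 0.18) and -0.18 log2 units (95% interval -0.53 to 0.18) in the same order. Itga4 and Itga7 had the highest SVZ estimates, at 0.94 log2 units (95% interval -0.16 to 2.05) and 0.94 log2 units (95% interval -0.11 to 1.99). The highest Itga4 and Itga7 values among SVZ knockouts, 34.0 and 37.3 RPKM, were both those of replicate 2, which held Egfl7. Among SVZ wild types the highest, 13.9 and 22.0 RPKM, were both those of replicate 3, which had no listed Egfl7. High values of these chains thus did not go with measured Egfl7 in both genotypes.

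Region was also compared among the libraries labelled knockout, which all came from male donors. There SVZ minus HC1 called 4 of 23 chains beside 7.06% of kept genes, with Itga4, Itga5 and Itga7 higher and Itgb8 lower. The SVZ knockouts include replicate 2, which held Egfl7 and had the highest Itga4 and Itga7 of the group. In the SVZ wild types the highest of both were those of replicate 3, which had no listed Egfl7. With that library also left out, a fit chosen after seeing the data, Itga5 alone passed, at 1.53 log2 units (adjusted p = 0.0226), beside 1.20% of kept genes. Itga4, Itga7 and Itgb8 then had 1.47, 1.61 and -0.64 log2 units (adjusted p = 0.139, 0.155 and 0.187). HC2 minus HC1 knockouts called 5 beside 38.3% of kept genes, with Itga1, Itga2b, Itgav and Lamb2 higher and Itga10 lower. Itga5, Itga7, Itgb8 and Lama5 kept their direction there but missed the threshold, with adjusted p of 0.0530, 0.0638, 0.0683 and 0.0712. Culture day differs between SVZ and HC1 along with region, and these cannot be told apart. In the comparisons over both genotypes, donor sex differs in part as well, through the HC1 wild types. SVZ libraries had a cell cycle level of 6.59 to 6.79, above all HC1 libraries at 4.65 to 6.04, and summed astrocyte markers of 1049 to 2253 RPKM, below all HC1 libraries at 3254 to 7030. Their summed endothelial markers also lay above those of HC1. Of the 3 endothelial markers tested, Flt1 alone was called (1.76 log2 units), and the median over the 3 was 0.02 log2 units. The sums for pericytes and fibroblasts overlapped, at 30.4 to 101 RPKM in the SVZ and 27.0 to 52.2 RPKM in HC1, and the part of either in the chains was not tested. With the cell cycle level in the model, 5 chains stayed called between SVZ and HC1, namely Itga4, Itga5, Itga7, Lamb1 and Itgb8. Without both SVZ libraries of doubtful label 3 stayed called, namely Itga4, Itga5 and Itgb8.

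Libraries of HC2 differed among themselves, both in chain levels and in cell cycle level. The mean log2 level of the cell cycle genes was 5.63, 3.94, 5.70 and 3.55 in the HC2 knockouts and 5.91, 2.71, 1.80 and 3.65 in the HC2 wild types. The summed astrocyte markers were 4735, 12026, 4700.0 and 16745 RPKM in the same knockouts, against 3756, 17651, 21315 and 14344 RPKM in the same wild types. Knockout replicate 8 and wild type replicate 5, with the lowest cell cycle level of their genotypes, had the lowest HC2 values of Itga6 (34.1 and 41.4 RPKM), Lama4 (0.983 and 0.553 RPKM) and Lama1 (2.00 and 1.11 RPKM). They also had the highest HC2 values of Itga7 (33.2 and 32.1 RPKM) and Itga2 (4.87 and 4.75 RPKM). Both libraries held the least Lamc1 of their genotypes (25.8 and 26.1 RPKM). Not all of these chains followed the cell cycle level. Wild type replicate 3, at 2.71, was below knockout replicate 8 in that level. Its Itga6, Lama1 and Itga2 (45.9, 2.62 and 3.77 RPKM) came next after those of the named libraries. Its Lama4, Lamc1 and Itga7 (5.20, 42.4 and 17.6 RPKM) did not. The part of cell cycle or astrocyte content in these levels was not tested beyond the model with the cell cycle level.

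**Figure D5:**
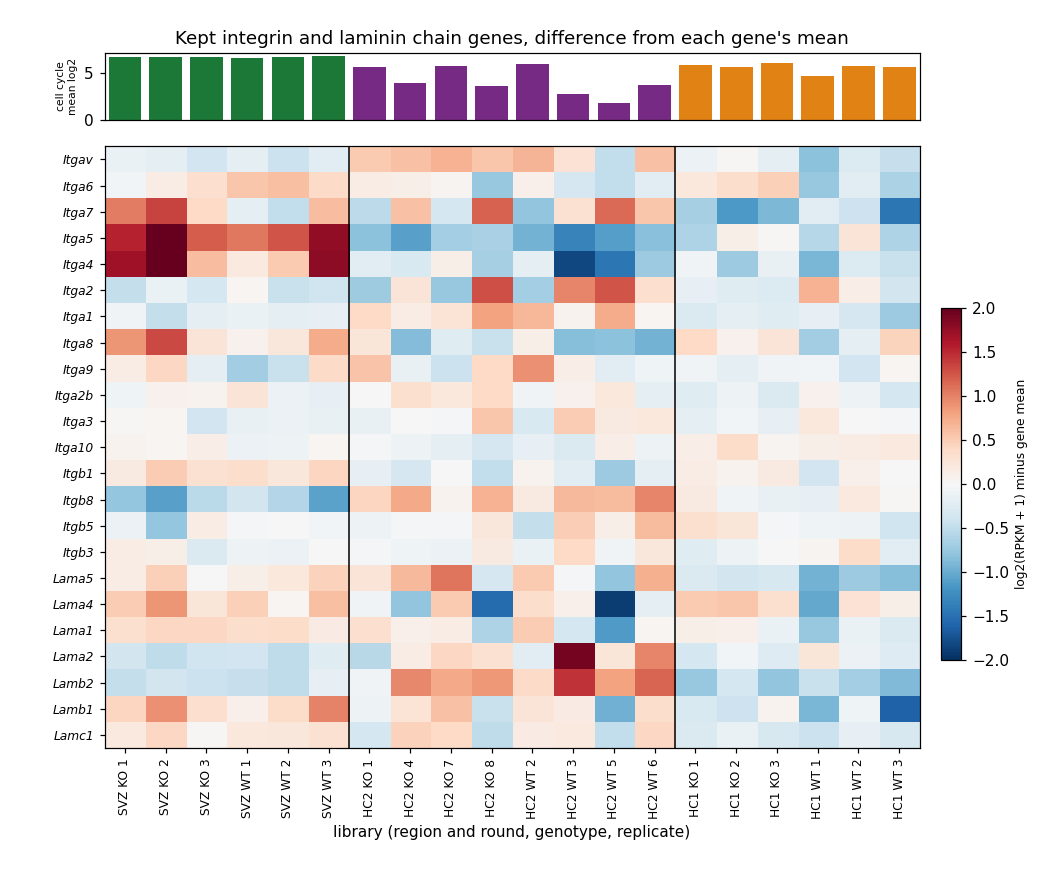
Log2(RPKM + 1) of the 23 tested chains minus each gene's mean over the 20 libraries, colour scale held to -2 and 2, with the mean log2 level of 38 cell cycle genes per library above. Itga5 is above its mean in all SVZ libraries, and HC2 knockout 8 and HC2 wild type 5 have the lowest Lama4 and Lama1 and the highest Itga2 and Itga7 of the HC2 libraries.

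The wider adhesion pathway was followed with lists of partner genes. Of 31 tested genes of the adhesion machinery inside the cell, 8 were higher and 5 lower in SVZ against HC1, which is 41.9% beside 34.1% of all kept genes. In HC2 against HC1, 7 were higher and 12 lower, which is 61.3% beside 54.3%. The first by p in the SVZ were Actn4, an actin crosslinker, at 0.49 log2 units (SE 0.076, adjusted p = 0.000314) and Zyx, a focal adhesion protein, at 1.13 log2 units (SE 0.19, adjusted p = 0.00063) among the higher, and Lims2, a partner of integrin-linked kinase, at -2.62 log2 units (SE 0.48, adjusted p = 0.00106) and Tns3, a tensin, at -0.72 log2 units (SE 0.17, adjusted p = 0.00523) among the lower. In HC2, Cd81, a tetraspanin, was higher by 1.21 log2 units (SE 0.11, adjusted p = 6.43e-08) and Tln1, talin, by 0.59 log2 units (SE 0.083, adjusted p = 1.38e-05), while Actn4 was lower, at -1.14 log2 units (SE 0.072, adjusted p = 5.97e-10) and so was Ilk, integrin-linked kinase, at -0.71 log2 units (SE 0.062, adjusted p = 4.89e-08).

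Of 23 tested matrix ligands and basement membrane partners, 9 were higher and 2 lower in the SVZ (47.8% beside 34.1% of kept genes), and 7 were higher and 3 lower in HC2 (43.5% beside 54.3%). Spp1, osteopontin, was higher in the SVZ by 2.71 log2 units (SE 0.37, adjusted p = 0.000146) and Hspg2, the basement membrane proteoglycan perlecan, by 1.33 log2 units (SE 0.21, adjusted p = 0.000338). Edil3 and Tnr, tenascin-R, were lower there, at -1.33 log2 units (SE 0.21, adjusted p = 0.000308) and -1.84 log2 units (SE 0.39, adjusted p = 0.00258). In HC2, Ntn1 and Nid2, nidogen 2, were higher by 1.21 log2 units (SE 0.11, adjusted p = 4.9e-08) and 0.92 log2 units (SE 0.18, adjusted p = 0.000335), and Dag1, dystroglycan, and Thbs4 were lower, at -0.82 log2 units (SE 0.085, adjusted p = 3.84e-07) and -0.44 log2 units (SE 0.089, adjusted p = 0.000501).

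Of 12 tested genes around latent TGF-beta, 4 were higher and 2 lower in the SVZ (50% beside 34.1% of kept genes), and 2 were higher and 1 lower in HC2 (25% beside 54.3%). Tgfb3 at 0.90 log2 units (SE 0.20, adjusted p = 0.00331) and Ltbp1, which stores the latent ligand in the matrix, at 1.22 log2 units (SE 0.37, adjusted p = 0.0180) were higher in the SVZ, and Tgfb2 at -0.62 log2 units (SE 0.18, adjusted p = 0.0127) and Nrros at -0.60 log2 units (SE 0.17, adjusted p = 0.0128) lower. Ltbp3 at 0.55 log2 units (SE 0.17, adjusted p = 0.0110) and Smad7, an inhibitor of the pathway, at 0.36 log2 units (SE 0.13, adjusted p = 0.0259) were higher in HC2, and Lrrc32 at -0.53 log2 units (SE 0.13, adjusted p = 0.00271) was lower. Of 7 integrin chain genes with letter names, Itgam, the leukocyte chain, was the 1 tested. It had 1.48, 2.67 and 1.78 RPKM in the SVZ knockouts and 1.65, 2.76 and 2.26 RPKM in the SVZ wild types, at most 0.019 RPKM in HC2, and 0.773 to 1.81 RPKM in HC1. Its SVZ minus HC1 difference was 0.45 log2 units (SE 0.12, adjusted p = 0.00939), while its partner chain Itgb2 stayed at or below 0.039 RPKM in the SVZ. HC2 minus HC1 was -1.15 log2 units for Itgam. It passed the filter on low values through the SVZ and HC1, where it was high, so the HC2 difference is a description. In all 4 lists no gene passed in any comparison between genotypes.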

How the data were processed

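Per the labels' protocols, Trizol RNA went through ribosomal depletion and exon capture into stranded, paired-read libraries. FastQC 0.11.5, DESeq2 and the mouse build mm10 (GRCm38) are named in the submitters' processing notes. The aligner, and whether counting used strand, are not given in those sources. The deposited values are linear RPKM per gene, written by the authors with decimal commas. Blank cells were read as 0. RPKM hold no counts, so no count model was run.

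Of 36724 genes, 16403 were kept for reaching 0.5 RPKM in 3 or more libraries. log2(RPKM + 1) was fitted with limma 3.58.1 in R 4.3.3 as 6 group means (14 residual degrees of freedom, trended and robust variances), two-sided, with Benjamini-Hochberg adjustment over all kept genes. A fold change on this scale understates changes of low genes. The limma code was tested on simulated data with 200 changed genes. Figures were drawn with matplotlib 3.10.9 in Python 3.11.15. One member is not reported here. Members and lists were chosen with earlier results of these data known. Chains called in any comparison, or among the 5 highest of the alpha, beta or laminin chains, are described by library, and up to 2 called genes per direction are named from each list. Alternatives covered pseudocount, filters, scaling, library weights, a cell cycle covariate, single libraries, knockouts alone and a replicate block. Same-numbered knockout and wild-type libraries within SVZ and within HC1 did not deviate together (correlations -0.26 to 0.007). Libraries that share a mouse number between regions or rounds were not compared, so this check cannot exclude shared animals or batches.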

Additional observations from a re-analysis of the deposited data

Results flagged for a closer look

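In groups of 4 libraries, the gap between the most extreme library and its nearest neighbour was set against the group's range, by Dixon's test at the 95% level, for 46 combinations of gene and group. Chance alone exceeds it in about 1 in 20. Itga6 was lowest in HC2 knockout replicate 8, at 34.1 RPKM beside 60.6 to 64.4 RPKM in the other HC2 knockouts (gap over range 0.872). Itga3 was highest in the same library, at 1.11 RPKM beside 0.29 to 0.43 RPKM (gap over range 0.830). Itga8 was highest in HC2 wild type replicate 2, at 1.60 RPKM beside 0.243 to 0.366 RPKM (gap over range 0.909). Knockout replicate 8 had the lowest cell cycle level of its group, 3.55 on the mean log2 scale, and wild type replicate 2 the highest of its group, 5.91.

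Itga6 moved in opposite directions with the genotype label in round 1 spheres of the 2 regions. Its knockout minus wild-type difference was -0.37 log2 units in the SVZ, where all libraries labelled knockout lay below all labelled wild type. It was 0.89 log2 units in HC1, where all knockouts lay above all wild types, but genotype and donor sex cannot be told apart there. By measured Egfl7 the SVZ libraries overlapped. Those that held it had 64.5, 85.9 and 88.9 RPKM of Itga6, and those with little or none had 56.1, 74.1 and 76.5 RPKM. The difference between these 2 effects was not tested by itself. Against the mean effect of both hippocampal rounds, the SVZ effect differed by -0.88 log2 units (unadjusted p = 0.00301, limma adjusted p = 0.999852), which failed the correction.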

How the results depend on the processing

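Counts of chains called between genotypes stayed at 0 in limma under every alternative run, the replicate block included where a fit was possible; HC2 knockouts and wild types share no number. SVZ minus HC1, with 8 calls, gave 5 with the cell cycle covariate, 3 without SVZ knockout replicate 2 and SVZ wild type replicate 3 together, 4 in knockouts alone, 1 in knockouts alone with SVZ knockout 2 also left out (chosen after seeing the data), and 6 to 9 leaving out 1 library. HC2 minus HC1, with 9 calls, gave 15 with library weights (beside 61.4% of kept genes), 5 in knockouts alone and 8 to 12 leaving out 1 library. The setting of knockouts alone compared the knockout means only, while the wild types stayed in the fit for the estimate of spread. A comparison of fewer libraries has less power, and the cause of the other shifts was not tested. The Itga6 difference of 0.51 over both hippocampal rounds ranged over 0.45 to 0.61 when 1 library was left out, with exact permutation p of 0.00429 to 0.0629, at or over 0.05 in 9 of 14. Permuting within replicate number as a replicate block in HC1 gave 0.51 with exact permutation p = 0.0786. Itga6 turned in sign at -0.091 (HC2 knockout minus wild type, cell cycle covariate) and at -0.21 (SVZ minus HC1, knockouts alone, with or without SVZ knockout 2), none called in limma (adjusted p = 0.951, 0.569 and 0.687). Named-gene values kept direction and call status in 396 repeats, lost the call in 41 and turned in 3. The 396 include Itga6 between genotypes, which was not called in the main fit and stayed so. These were 14 repeats in HC1, 14 in HC2, 15 in the SVZ and 22 over both hippocampal rounds. Scaling by median of ratios moved the median of all genes in HC2 minus HC1 from -0.06 to 0.04. RPKM carry no counts, so no counting interval is given.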
